A study of Mus musculus with 9 samples.

Results

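The genes described here are the cyclins, the cyclin-dependent kinases (CDKs), the CDK inhibitors and the E2F transcription factors, together with the retinoblastoma (pocket) proteins Rb1, Rbl1 and Rbl2, the Cdc25 phosphatases and the kinase Wee1. They were found by their gene symbols, and 61 of the 19505 gene symbols on the array matched, carried by 62 of 22206 tested transcript clusters. These are 22 cyclins, 17 kinases, 7 inhibitors, 8 E2Fs, 3 pocket proteins, 3 Cdc25 phosphatases and Wee1. Genes of these families without an entry in the table of probe genes are not analysed here. Ccnd1, Ccnb1, Ccnf, Cdk9 and Cdk12 are not among the members. Only E2f3 had more than 1 transcript cluster, of which the brighter one, by its mean, was used.

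Total RNA of salivary glands, named submandibular in the title of the series, from female C57BL6/J mice aged 12 weeks was measured on Clariom S arrays. The 9 arrays form 3 groups of 3 biological replicates: mock surgery with 3 days of healing, partial resection with 3 days of healing, and partial resection with 14 days of healing. Mock glands healed for 3 days only, so at day 14 the effect of resection and that of time since surgery cannot be told apart. The deposited values are on a log2 scale. Array medians ran from 5.09 to 5.24, arrays of 1 group correlated at 0.985 to 0.990 across transcript clusters, and the 11 epithelial markers of the gland had a mean level between 11.95 and 12.53 on every array. Levels are listed below in the order of replicates 1, 2 and 3, and differences are log2 differences ± SE from a linear model over all 9 arrays, with n = 3 in each group.

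Cyclins are the regulatory subunits that switch on CDKs at successive stages of the cell cycle. D-type cyclins with Cdk4 and Cdk6, and then E-type cyclins with Cdk2, phosphorylate the pocket proteins, which releases E2F factors to switch on genes of DNA replication. Cyclin A then acts with Cdk2 in S phase and with Cdk1 before mitosis, and cyclin B with Cdk1 drives mitosis. Wee1 holds Cdk1 back by phosphorylation and Cdc25 phosphatases lift that hold, while the INK4 and CIP/KIP proteins inhibit the kinases. Salivary glands of the adult are slow to renew, and their acinar and duct cells can divide again after injury.

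Promoters of cell cycle genes are known to carry a few short motifs: E2F sites, the CCAAT box bound by NF-Y, and the cell cycle genes homology region (CHR) bound by the DREAM complex and its relatives. The promoter windows of the following members are shown because their levels moved with the groups and because the motifs are arranged in them in different ways. Each is the 250 bases before the annotated start site, 5′ to 3′ on the gene's own strand, from RefSeq (GRCm38.p6). Capitals mark a match to TTTGAA (CHR), CCAAT, or 1 of the E2F letters TTTGGCGC, TTTCCCGC, TTTGCCGC and TTTCGCGC, in either orientation, and no matches overlap in these windows. The windows lie at chr10:69352913-69353162 (Cdk1), chr9:70421555-70421804 (Ccnb2), chr7:48881597-48881846 (E2f8) and chr2:157204535-157204784 (Rbl1), all on the minus strand.
Cdk1: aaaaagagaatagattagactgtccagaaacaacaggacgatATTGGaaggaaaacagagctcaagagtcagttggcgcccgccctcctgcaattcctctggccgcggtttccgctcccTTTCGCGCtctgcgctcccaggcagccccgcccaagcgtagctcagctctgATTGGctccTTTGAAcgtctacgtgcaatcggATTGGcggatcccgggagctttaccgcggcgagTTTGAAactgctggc
Ccnb2: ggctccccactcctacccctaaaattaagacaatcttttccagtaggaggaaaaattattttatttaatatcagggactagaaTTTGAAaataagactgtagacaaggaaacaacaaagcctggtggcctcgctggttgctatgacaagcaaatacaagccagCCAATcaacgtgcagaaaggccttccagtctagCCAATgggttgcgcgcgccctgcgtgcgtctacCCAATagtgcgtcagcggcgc
E2f8: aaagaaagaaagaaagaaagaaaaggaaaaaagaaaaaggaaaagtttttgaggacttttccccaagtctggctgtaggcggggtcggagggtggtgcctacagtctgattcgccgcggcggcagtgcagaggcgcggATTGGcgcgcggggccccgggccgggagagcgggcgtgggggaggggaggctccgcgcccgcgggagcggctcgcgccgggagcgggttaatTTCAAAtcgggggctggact
Rbl1: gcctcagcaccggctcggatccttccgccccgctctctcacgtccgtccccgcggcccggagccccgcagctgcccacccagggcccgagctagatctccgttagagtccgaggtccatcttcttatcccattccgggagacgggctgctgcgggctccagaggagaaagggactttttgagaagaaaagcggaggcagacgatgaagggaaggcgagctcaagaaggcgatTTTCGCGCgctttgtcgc
Ccnb2, which encodes cyclin B2, has 3 CCAAT matches, each starting 33 bases after the one before, with a CHR match further upstream. In the Cdk1 window 3 CCAAT matches lie on the opposite strand, the last 2 starting 32 bases apart, with 2 CHR matches and 1 E2F match between and around them. E2f8 has 1 CCAAT and 1 CHR match, and Rbl1 has 1 E2F match whose first base lies 18 bases before the start site.

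RefSeq windows were found for 46 of the 61 members, as 53 windows. Of these windows 17.0% held CHR letters, 43.4% held CCAAT and 13.2% held an E2F match, beside 16%, 33.8% and 1.86% of all 32851 windows of the same length. The 19 windows of the 15 matched members that passed the test in either comparison with the day 3 resected glands held them in 21.1%, 47.4% and 15.8%, and the 34 windows of the other matched members in 14.7%, 41.2% and 11.8%. The windows of E2f1, Ccne1, Cdkn1a, Cdk6, Cdkn2c and Cdk14 held none of these letters. These matches are descriptions of the sequence, not measured binding.

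**Figure D1:**
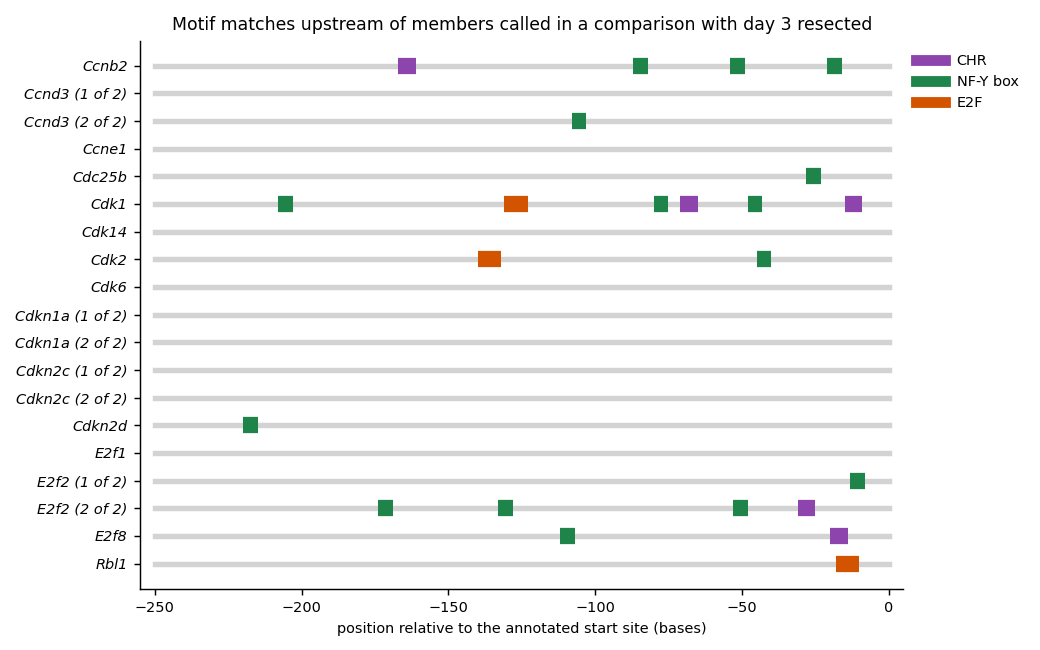
Positions of motif matches in the 250 bases before the start site (x axis, bases from the annotated start) for the 19 promoter windows of members that passed the test in either comparison with day 3 resected glands. Purple marks CHR, green the CCAAT box bound by NF-Y and orange E2F matches; Cdk1 holds the most matches, with all 3 motifs, and the windows of E2f1 and Ccne1 hold none.

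On day 3, resected glands against mock, the question is what removal of tissue adds to surgery. Of the 61 members 14 rose and none fell (limma, Benjamini-Hochberg adjusted p under 0.05 over all 22206 transcript clusters). Over all transcript clusters 4.92% rose and 1.36% fell, against 23.0% of the members that rose. The 14 were Ccna2, Ccnb2, Ccnd3, Ccne1, Cdk1, Cdk2, Cdk14, Cdkn1a, Rbl1, E2f1, E2f2, E2f8, Cdc25b and Wee1. The median difference of the members was 0.17, beside -0.06 for all transcript clusters. Every day 3 resected array lay above every mock array for 21 members (34.4%, against 11.2% of all transcript clusters) and below for 8 (13.1%, against 11.8%). At an unadjusted p under 0.05, 32 members (52.5%) differed, against 18.6% of all transcript clusters. The count rests in part on 1 array: without day 3 resected replicate 2, 8 members rose (Ccnb2, Ccne1, Cdc25b, Cdk1, Cdkn1a, E2f1, E2f8 and Rbl1), and these 8 kept the call whichever array was left out. Without mock replicate 1, 1 member, Cdkn2a, passed as lower. Members outside the 14 gained a call as higher when 1 array was left out: Cdc25c and Cdkn2c without mock replicate 1, Ccne2 without mock replicate 2, and Cdc25c, Cdkn2c, Cdkn2d and Rb1 without day 3 resected replicate 1.

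By day 14 no member differed from mock past the threshold, where 0.153% of all transcript clusters did, and the smallest adjusted p was 0.375 (Wee1). Unadjusted p in the limma fit was under 0.05 for 7 members (11.5%), against 8.18% of all transcript clusters. The median difference of the members from mock was -0.21, beside -0.001 for all transcript clusters. Differences were below 0 for 37 members and above 0 for 24. All day 14 arrays lay below all mock arrays for 7 members (11.5%, against 6.99% of all transcript clusters). They lay above for 3 (4.92%, against 6.03%). Between the resected groups, 16 members fell from day 3 to day 14 and none rose, where 4.88% of all transcript clusters fell and 1.40% rose. These were Ccna2, Ccnb2, Ccnd3, Ccne1, Ccne2, Cdk1, Cdk6, Cdkn1a, Cdkn2c, Cdkn2d, Rb1, Rbl1, E2f1, E2f8, Cdc25c and Wee1, and 10 of 61 fell when day 3 resected replicate 2 was left out. All 3 comparisons share arrays by pairs, so they are not independent of each other.

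**Figure D2:**
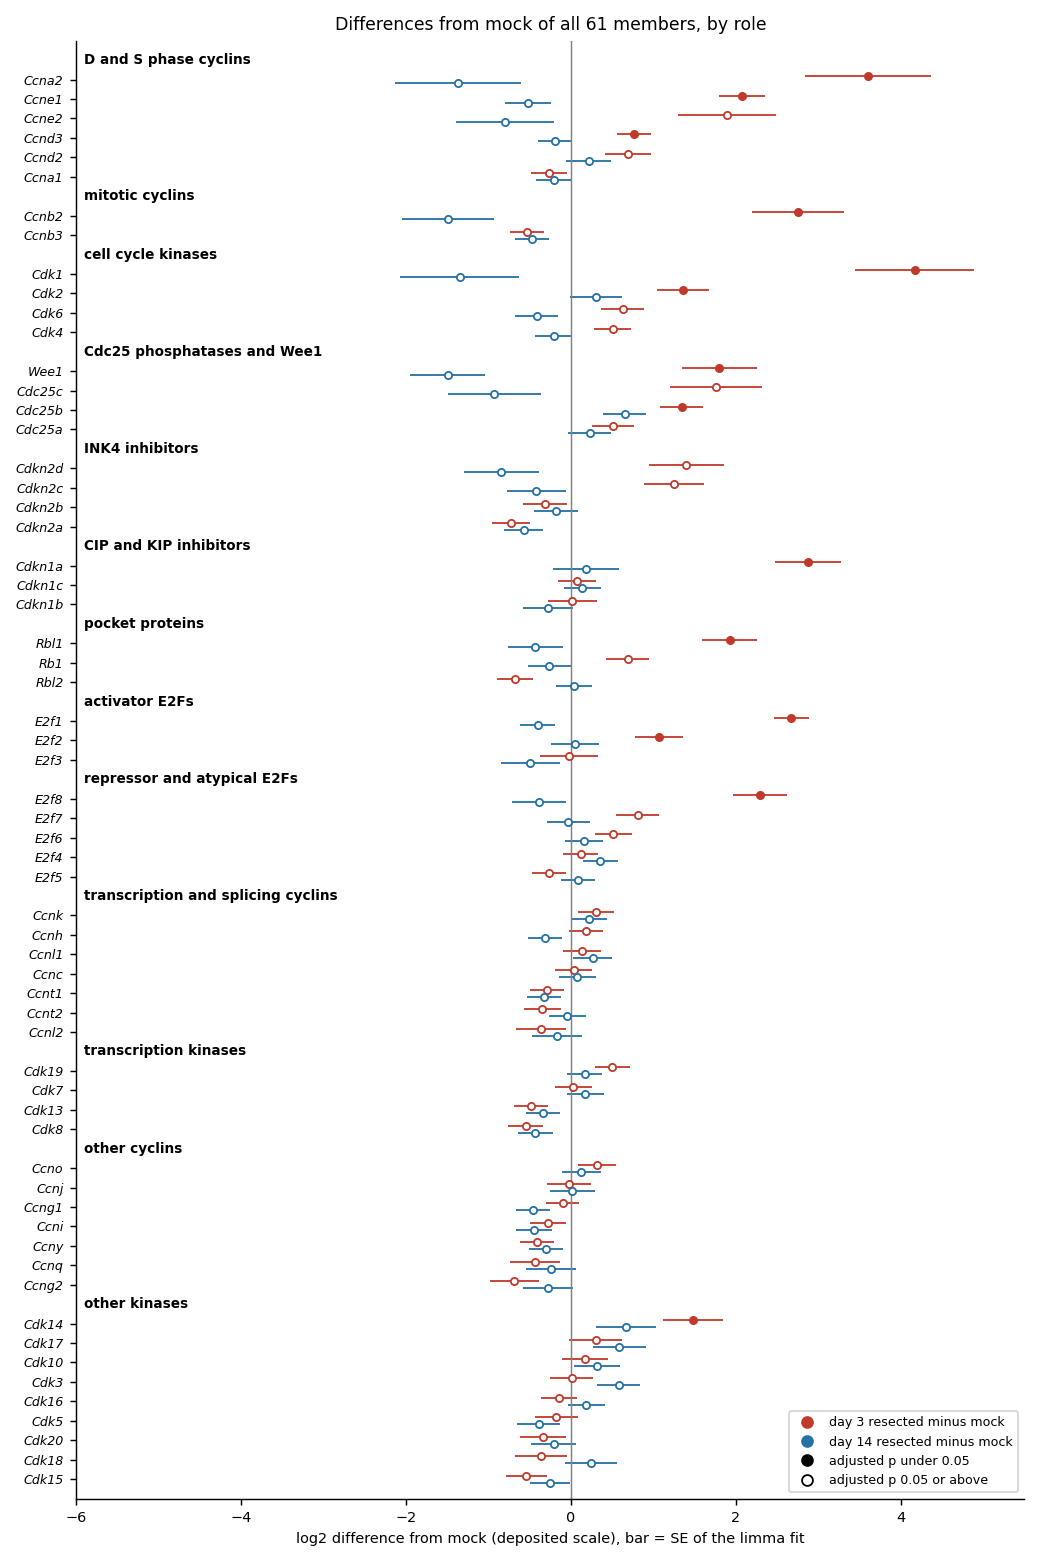
Log2 difference from mock (x axis, deposited scale, bars are SE of the limma fit) for the 61 members, grouped by role. Red marks day 3 resected and blue day 14 resected glands, filled points have an adjusted p under 0.05; the 14 filled points are all red and lie between 0.76 (Ccnd3) and 4.17 (Cdk1).

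Among the measured cyclins of G1 and S phase, which lack Ccnd1, 3 of 6 rose on day 3: Ccna2, Ccne1 and Ccnd3. Ccna2 encodes cyclin A2, the partner of Cdk2 in S phase and of Cdk1 before mitosis. Its levels were 7.92, 7.27 and 4.04 in mock glands, 9.19, 10.85 and 10.01 in day 3 resected glands and 4.52, 5.17 and 5.45 in day 14 resected glands. The day 3 resected arrays stood above all others, and mock replicate 3 lay below the day 14 arrays, more than 3 log2 units under the other mock arrays. Ccna2 rose by 3.60 ± 0.76 over mock on day 3 (adjusted p = 0.0120), a call that was lost without day 3 resected replicate 2 or replicate 3 (adjusted p of up to 0.0580). It fell by 4.97 ± 0.76 from day 3 to day 14 (adjusted p = 0.00131).

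Ccne1 encodes cyclin E1, which activates Cdk2 at the start of S phase. It stood at 5.42, 5.42 and 4.69 in mock, 6.97, 7.71 and 7.08 in day 3 resected and 4.44, 5.0 and 4.52 in day 14 resected glands. No day 3 resected array overlapped the other groups, while the mock and day 14 ranges did overlap. The rise over mock was 2.08 ± 0.28 (adjusted p = 6.3e-04) and Ccne1 fell by 2.60 ± 0.28 to day 14 (adjusted p = 9.2e-05). Its paralog Ccne2 (cyclin E2) spread more widely, at 6.74, 7.88 and 5.20 in mock, 8.02, 9.02 and 8.47 in day 3 resected and 6.60, 6.13 and 4.69 in day 14 resected glands. The day 3 resected arrays lay above the mock arrays, but Ccne2 did not pass the test against mock. It passed as lower on day 14 than on day 3, a call that ended without day 14 resected replicate 3 or without replicate 2 or 3 of day 3 resected (adjusted p of up to 0.0761).

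The D cyclins carry growth factor signals to Cdk4 and Cdk6. Ccnd3 (cyclin D3) was at 11.68, 11.27 and 11.45 in mock, 12.23, 12.27 and 12.19 in day 3 resected and 11.11, 11.20 and 11.50 in day 14 resected glands. The day 3 arrays were within 0.1 of each other and above all others, and the small rise, at 0.76 the least of those that passed, was lost in each of the fits that left out 1 array (adjusted p of 0.0501 to 0.137). Its fall to day 14 passed too, but not without day 3 resected replicate 2 or without replicate 1 or 2 of day 14 resected (adjusted p of up to 0.0582). Ccnd2 (cyclin D2) read 7.08, 7.02 and 6.13 in mock, 7.30, 7.61 and 7.41 in day 3 resected and 6.62, 7.05 and 7.22 in day 14 resected glands. For Ccnd2 the difference on day 3 was 0.69 ± 0.28 (adjusted p = 0.191), or 0.39 ± 0.25 without mock replicate 3 (adjusted p = 0.470), and that from day 3 to day 14 was -0.48 ± 0.28 (adjusted p = 0.391). Ccna1, a cyclin A of the germ line, stayed under 4 on every array.

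Of the measured mitotic cyclins, which lack Ccnb1 and Ccnf, Ccnb2 rose and Ccnb3 did not. Ccnb2, which partners Cdk1 in mitosis, read 7.51, 7.17 and 5.20 in mock, 8.51, 10.48 and 9.14 in day 3 resected and 5.31, 4.83 and 5.25 in day 14 resected glands. As with Ccna2, mock replicate 3 was at the day 14 level and the other mock arrays stood about midway. The difference on day 3 was 2.75 ± 0.56 (adjusted p = 0.00930), and Ccnb2 fell by 4.24 ± 0.56 from day 3 to day 14 (adjusted p = 3.8e-04). Ccnb3, a cyclin B of meiosis, stayed under 4 on every array.

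Among the kinases of the cell cycle Cdk1 and Cdk2 rose, and Cdk4 and Cdk6 did not pass the test against mock. Cdk1, the kinase of mitotic entry, had levels of 6.24, 5.75 and 3.00 in mock, 7.95, 10.04 and 9.51 in day 3 resected and 4.22, 3.67 and 3.06 in day 14 resected glands. Day 3 resected arrays were again the highest, and mock replicate 3 was the lowest of all 9 arrays. Cdk1 rose by 4.17 ± 0.72 over mock on day 3 (adjusted p = 0.00335) and fell by 5.52 ± 0.72 from day 3 to day 14 (adjusted p = 3.6e-04), each time the largest difference among the members.

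Cdk2, the kinase of S phase, read 9.33, 8.79 and 9.06 in mock, 10.15, 11.10 and 10.01 in day 3 resected and 9.26, 9.87 and 8.97 in day 14 resected glands. The day 3 arrays were above all others with no overlap. Cdk2 rose by 1.36 ± 0.32 (adjusted p = 0.0209), a call lost without mock replicate 2, mock replicate 3 or day 3 resected replicate 2 (adjusted p of up to 0.0846). From day 3 to day 14 it differed by -1.05 ± 0.32 (adjusted p = 0.0736).

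Cdk4 and Cdk6 are the partners of the D cyclins. Cdk4 was at 12.70, 12.71 and 12.38 in mock, 12.80, 13.46 and 13.05 in day 3 resected and 12.28, 12.38 and 12.51 in day 14 resected glands, a difference on day 3 of 0.51 ± 0.22 (adjusted p = 0.247). Cdk6 read 8.12, 7.91 and 8.21 in mock, 8.49, 8.83 and 8.81 in day 3 resected and 7.90, 7.09 and 8.02 in day 14 resected glands. In both genes the day 3 resected arrays lay above the others without overlap, by less than for Cdk1 and Cdk2. Cdk6 differed from mock by 0.63 ± 0.26 on day 3 (adjusted p = 0.209) and fell by 1.04 ± 0.26 from day 3 to day 14 (adjusted p = 0.0301). Leaving out day 14 resected replicate 2, or replicate 2 or 3 of day 3 resected, ended that call (adjusted p of up to 0.114).

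Wee1 and the Cdc25 phosphatases act on the CDKs in opposite directions. Wee1, which adds the inhibitory phosphate, stood at 11.11, 10.59 and 8.78 in mock, 11.81, 12.28 and 11.79 in day 3 resected and 8.62, 8.40 and 8.98 in day 14 resected glands. Mock replicate 3 lay among the day 14 arrays, and the other mock arrays stood closer to those of day 3. The rise on day 3 was 1.80 ± 0.46 (adjusted p = 0.0335). It was 1.11 ± 0.28 without mock replicate 3, and the call was lost without any 1 of the day 3 resected arrays or day 14 resected replicate 1 (adjusted p of up to 0.120). Wee1 fell by 3.29 ± 0.46 from day 3 to day 14 (adjusted p = 6.0e-04).

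Cdc25c, a phosphatase that activates Cdk1 at mitosis, read 5.14, 4.16 and 3.04 in mock, 4.64, 6.94 and 6.03 in day 3 resected and 3.59, 3.32 and 2.64 in day 14 resected glands. The mock and day 3 arrays overlapped, and the day 14 arrays were below those of day 3. Its day 14 levels were all under 4, where a low level and no expression cannot be told apart. Its difference on day 3 was 1.76 ± 0.56 (adjusted p = 0.0959), and it fell by 2.69 ± 0.56 from day 3 to day 14 (adjusted p = 0.0111). Leaving out day 14 resected replicate 3, or replicate 2 or 3 of day 3 resected, ended that call (adjusted p of up to 0.0585). Cdc25b was at 3.50, 3.66 and 3.71 in mock, 4.46, 5.37 and 5.07 in day 3 resected and 3.90, 4.50 and 4.43 in day 14 resected glands. Its mock levels were all under 4 as well. Cdc25b passed the test against mock on day 3. It is also 1 of the 3 members, with Cdk14 and Cdk3, whose day 14 arrays all lay above the mock arrays. That is 4.92% of the members, against 6.03% of all transcript clusters, and none of the 3 passed on day 14. Cdc25a, which acts from late G1 onward, ran from 7.45 to 8.39 over the 9 arrays and its groups overlapped.

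**Figure D3:**
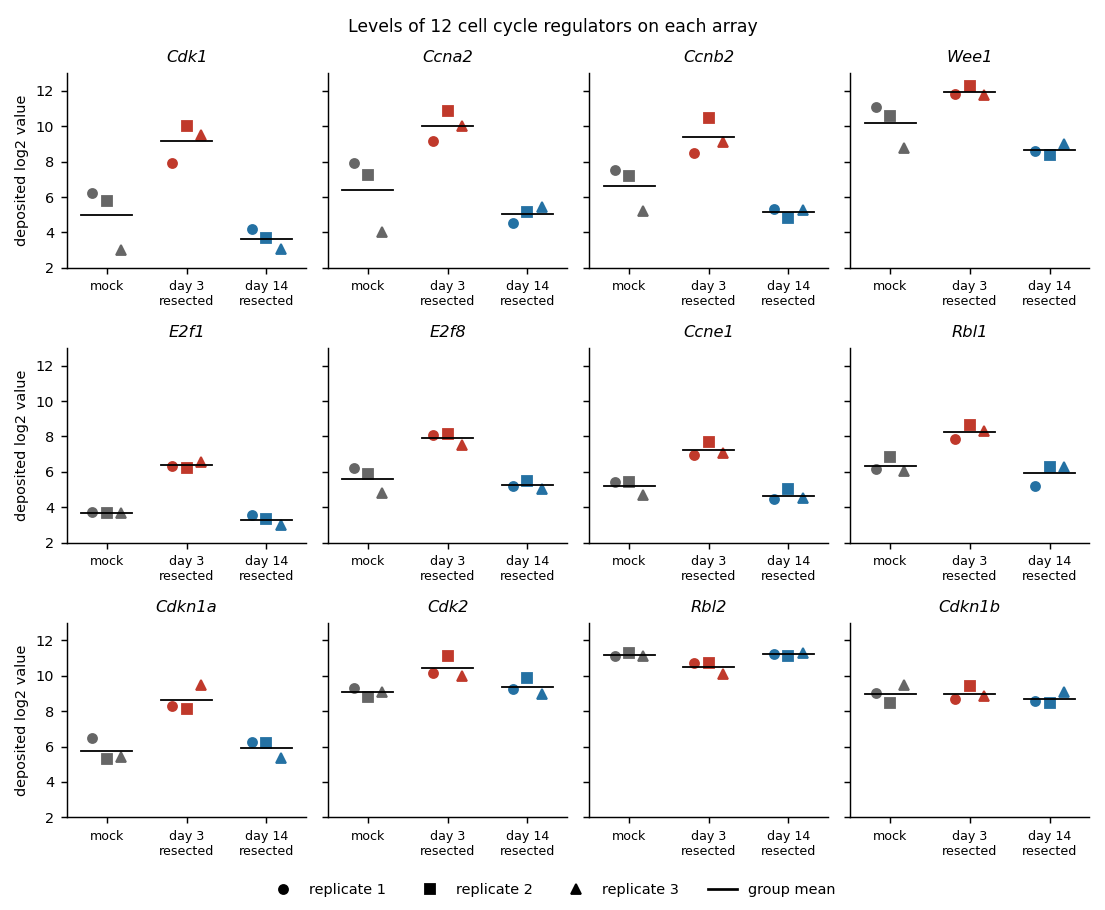
Deposited log2 level (y axis) of 12 members on each of the 9 arrays, by group, with a symbol for each replicate and a line at the group mean. The day 3 resected arrays are the highest for Cdk1, Ccna2, Ccnb2, Wee1, E2f1, E2f8, Ccne1, Rbl1, Cdkn1a and Cdk2; mock replicate 3 (triangle) falls to the day 14 level for Cdk1 (3.00), Ccna2 (4.04), Ccnb2 (5.20) and Wee1 (8.78), and E2f1 is flat over the mock arrays.

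The activator E2Fs switch on genes of S phase, and 2 of 3 rose. E2f1 had levels of 3.71, 3.69 and 3.69 in mock, 6.30, 6.24 and 6.55 in day 3 resected and 3.55, 3.32 and 2.99 in day 14 resected glands. Replicates were close together in each group, with none of the drop of mock replicate 3 seen for Cdk1 and Ccna2. All mock and day 14 levels of E2f1 were under 4, however, where a low level and no expression cannot be told apart. E2f1 rose by 2.67 ± 0.21 on day 3 (adjusted p = 1.4e-05), the smallest p among the members. From day 3 to day 14 it fell by 3.07 ± 0.21 (adjusted p = 4.5e-06), and on day 14 it differed from mock by -0.40 ± 0.21 (adjusted p = 0.659).

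E2f2 read 4.14, 4.35 and 4.02 in mock, 5.38, 5.54 and 4.79 in day 3 resected and 3.61, 4.56 and 4.50 in day 14 resected glands. It passed on day 3 with no overlap, a call lost in 6 of the 9 fits that left out 1 array (adjusted p of up to 0.167). E2f3 has 2 transcript clusters that do not move alike. The one used, which is labelled as unmapped, differed from mock on day 3 by -0.02 ± 0.35 with overlapping arrays. The other, at a lower mean level, differed by 0.88 ± 0.29 (adjusted p = 0.104). Its day 3 resected levels (5.96, 6.16 and 5.73) lay above all its mock levels (4.47, 5.37 and 5.37), as for 11.2% of all transcript clusters.

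Of the repressor and atypical E2Fs 1 of 5 rose, E2f8, an atypical E2F that represses E2F targets late in S phase. It was at 6.20, 5.86 and 4.80 in mock, 8.10, 8.13 and 7.52 in day 3 resected and 5.18, 5.49 and 5.02 in day 14 resected glands. All day 3 arrays exceeded the others, and mock replicate 3 was the lowest of the 9. It rose by 2.30 ± 0.33 (adjusted p = 9.2e-04). Its close relative E2f7 read 4.99, 4.13 and 4.82 in mock, 5.38, 5.76 and 5.25 in day 3 resected and 4.69, 4.81 and 4.35 in day 14 resected glands, which did not pass although the day 3 arrays did not overlap the others. E2f4, E2f5 and E2f6, which act mainly as repressors, differed from mock by between -0.26 and 0.51 on day 3.

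Of the 3 pocket proteins, which bind E2Fs, 1 rose on day 3, Rbl1. Rbl1 (p107) read 6.16, 6.84 and 6.02 in mock, 7.85, 8.64 and 8.31 in day 3 resected and 5.19, 6.26 and 6.28 in day 14 resected glands. The day 3 arrays were all above the rest. Rbl1 rose by 1.92 ± 0.33 on day 3 (adjusted p = 0.00345) and fell by 2.36 ± 0.33 to day 14 (adjusted p = 7.0e-04).

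Rbl2 (p130), the pocket protein of quiescent cells, was at 11.12, 11.27 and 11.14 in mock, 10.70, 10.70 and 10.11 in day 3 resected and 11.23, 11.11 and 11.31 in day 14 resected glands. All its day 3 resected arrays lay below all other arrays, without passing the test against mock (adjusted p = 0.10). Rb1, the retinoblastoma protein itself, stood at 8.18, 7.79 and 8.21 in mock, 8.19, 9.15 and 8.90 in day 3 resected and 7.93, 7.67 and 7.78 in day 14 resected glands. Its difference on day 3 was 0.69 ± 0.26 (adjusted p = 0.165), with 1 day 3 array inside the mock range. Rb1 fell by 0.95 ± 0.26 from day 3 to day 14 (adjusted p = 0.0483), a call lost in 8 of 9 fits that left out 1 array (adjusted p of up to 0.192).

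Inhibitors of the CDKs did not move as 1 group: of 7, only Cdkn1a rose on day 3. Cdkn1a encodes p21, an inhibitor of Cdk2 that p53 is known to switch on. Its levels were 6.51, 5.31 and 5.43 in mock, 8.27, 8.15 and 9.46 in day 3 resected and 6.28, 6.17 and 5.36 in day 14 resected glands. The day 3 arrays stood apart, mock and day 14 overlapped, and mock replicate 3 was not unusual here. Cdkn1a rose by 2.87 ± 0.40 (adjusted p = 7.9e-04) and fell by 2.69 ± 0.40 to day 14 (adjusted p = 0.00107). Beside Cdkn1a, 17 genes were listed as p53 targets, Trp53 itself among them, and 14 were measured, without Trp53. On day 3, 1 rose (7.14%, against 4.92% of all transcript clusters), the death receptor Fas (1.08 ± 0.26, adjusted p = 0.0257). Another 1 fell (7.14%, against 1.36%), the antiproliferative gene Btg2 (-1.32 ± 0.26, adjusted p = 0.00696). Every day 3 resected array lay above every mock array for 4 of the 14 (28.6%, against 11.2%) and below for 2 (14.3%, against 11.8%). The median difference of these targets was 0.22, beside -0.06 for all transcript clusters.

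Cdkn1b (p27), the inhibitor associated with resting cells, read 9.02, 8.45 and 9.45 in mock, 8.67, 9.42 and 8.88 in day 3 resected and 8.55, 8.45 and 9.09 in day 14 resected glands. Its groups overlapped and the difference on day 3 was 0.02 ± 0.30 (adjusted p = 0.988), with a sign that depends on the scaling. Cdkn1c (p57) stayed under 4 on every array.

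Of the INK4 inhibitors, which bind Cdk4 and Cdk6, none of 4 passed against mock. Cdkn2c (p18) was at 7.95, 6.83 and 7.33 in mock, 7.91, 9.37 and 8.60 in day 3 resected and 7.25, 6.85 and 6.77 in day 14 resected glands. Cdkn2d (p19) read 6.56, 6.33 and 5.74 in mock, 6.32, 8.61 and 7.90 in day 3 resected and 5.04, 5.59 and 5.47 in day 14 resected glands. For both, day 3 resected replicates 2 and 3 stood above all other arrays while replicate 1 lay in the mock range. Cdkn2c differed from mock by 1.25 ± 0.36 on day 3 (adjusted p = 0.0622) and fell by 1.67 ± 0.36 from day 3 to day 14 (adjusted p = 0.0135). Leaving out replicate 2 or 3 of either resected group ended that call (adjusted p of up to 0.0609). Cdkn2d also fell between the resected days, but not without day 14 resected replicate 1 (adjusted p = 0.0506). Cdkn2a, which encodes p16 and Arf, stayed under 4 on every array, and Cdkn2b (p15) ran from 3.35 to 4.38.

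Among the cyclins and kinases whose main known roles lie outside the cell cycle engine, 1 passed the test on day 3, Cdk14. None of the 7 transcription and splicing cyclins (Ccnc, Ccnh, Ccnk, Ccnl1, Ccnl2, Ccnt1 and Ccnt2) passed on day 3, with differences from -0.36 to 0.31. None of the 4 transcription kinases passed either. Of these, Cdk8 and Cdk13 were lower on all day 3 resected arrays than on all mock arrays and Cdk19 was higher. Lower without overlap were 13.1% of the members and 11.8% of all transcript clusters, and higher 34.4% and 11.2%. The other 7 cyclins differed from mock by -0.69 (Ccng2, a cyclin G known to be high in arrested cells) to 0.32 (Ccno), and none passed.

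Of the other 9 kinases, which are not core drivers of division, Cdk14 rose and the others did not pass. Cdk14, a kinase that acts with cyclin Y in Wnt signalling, was at 5.49, 5.86 and 5.86 in mock, 6.26, 7.46 and 7.93 in day 3 resected and 6.80, 6.05 and 6.37 in day 14 resected glands. Both resected groups lay above all mock arrays, and the call on day 3 was lost in 5 of 9 fits that left out 1 array (adjusted p of up to 0.132). Its partner Ccny ran from 9.91 to 10.65 and did not pass. Ccny was lower on all day 3 resected arrays than on all mock arrays, as were 11.8% of all transcript clusters. Cdk3 had day 14 levels of 3.95, 4.05 and 4.11, above mock (3.38, 3.10 and 3.89) and day 3 (3.02, 3.74 and 3.63), also without passing.

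The comparison of day 14 glands with mock depends on mock replicate 3. Among the 14 members that rose on day 3, the lowest mock array was replicate 3 for 8, replicate 2 for 4 and replicate 1 for 2. These 14 were selected by their difference from the mock arrays. Counted over all members, the lowest mock array was replicate 2 for 28, replicate 3 for 23 and replicate 1 for 10. The mean level of the S phase E2F targets was 5.82 on mock replicate 3 and 6.54 and 7.13 on the other mock arrays. Macrophage markers were at 7.86 against 8.45 and 8.26, and fibroblast markers at 8.61 against 9.26 and 9.17. Its epithelial marker mean was 12.53, against 12.27 and 12.20, and the part of these cells in its low cell cycle levels was not tested. Without this array 2 members passed as lower on day 14 than mock: Ccna2 differed by -2.55 ± 0.43 (adjusted p = 0.0360) and Wee1 by -2.18 ± 0.28 (adjusted p = 0.00652). With all arrays these differences were -1.37 ± 0.76 (adjusted p = 0.684) and -1.49 ± 0.46 (adjusted p = 0.375). Cdk1 differed by -1.35 ± 0.72 with all arrays and by -2.35 ± 0.52 without this array (adjusted p = 0.667 and 0.122). Ccnb2 differed by -1.49 ± 0.56 and by -2.21 ± 0.45 (adjusted p = 0.520 and 0.0858), so that both differences were larger in size without it and passed in neither fit. Over all members the median within-group SD was 0.29 in mock, 0.28 in day 3 resected and 0.27 in day 14 resected glands, beside 0.29, 0.25 and 0.26 over all transcript clusters.

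Genes that act with the members, or downstream of them, rose in the same day 3 glands. Of 20 listed E2F target genes of S phase 17 were measured. Of these, 14 rose on day 3 (82.4%, against 4.92% of all transcript clusters) and none fell, with a median difference of 2.82. They included the replicative helicase subunits Mcm6 (4.16 ± 0.57), Mcm5 (3.92 ± 0.36) and Mcm3 (3.32 ± 0.32) and the ribonucleotide reductase subunit Rrm2 (3.64 ± 0.65). Of 24 measured partners and regulators, of 25 listed, 8 rose (33.3%) and none fell, with a median of 0.83. The largest were the proliferation marker Mki67 (3.85 ± 0.59), the mitotic kinases Plk1 (3.19 ± 0.58) and Aurkb (2.92 ± 0.37), and Cdc20 (3.03 ± 0.57), an activator of the ubiquitin ligase that destroys mitotic cyclins. From day 3 to day 14, 15 of the 17 targets (88.2%) and 11 of the 24 partners (45.8%) fell, against 4.88% of all transcript clusters. No gene of these lists differed from mock past the threshold on day 14, and the smallest adjusted p was 0.257. The differences lay mostly below 0, for all 17 targets (median -0.48) and 18 of the 24 partners (median -0.14). Unadjusted p in the limma fit was under 0.05 for 3 targets (17.6%) and 6 partners (25%), against 8.18% of all transcript clusters.

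Markers of immune and stromal cells moved in the same arrays. Of the 9 measured macrophage markers 8 rose on day 3 (88.9%, median 2.94), and of 5 neutrophil markers 3 rose (60%). Of 7 lymphocyte markers 1 rose (14.3%), and of 6 fibroblast markers 5 rose (83.3%, median 2.33). None of 5 endothelial markers passed. Of 11 epithelial markers 1 rose (9.09%), Krt19 (1.04 ± 0.27), and 1 fell (9.09%), the acinar factor Bhlha15 (-1.19 ± 0.31). On day 3, 4.92% of all transcript clusters rose and 1.36% fell, with a median difference of -0.06. The mean level of the macrophage markers was 7.86 to 8.45 in mock, 10.88 to 11.48 in day 3 resected and 8.53 to 8.61 in day 14 resected glands. That of the fibroblast markers was 8.61 to 9.26, 10.87 to 12.39 and 9.47 to 9.91, and that of the neutrophil markers 4.37 to 4.54, 5.62 to 6.99 and 4.15 to 4.45. Lymphocyte markers stayed between 3.89 and 4.33. The log2 scale has no 0 for a marker that is absent. The part of these cells in the results on the members was not tested. In whole-gland RNA more cells of a type and more RNA per cell cannot be told apart.

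**Figure D4:**
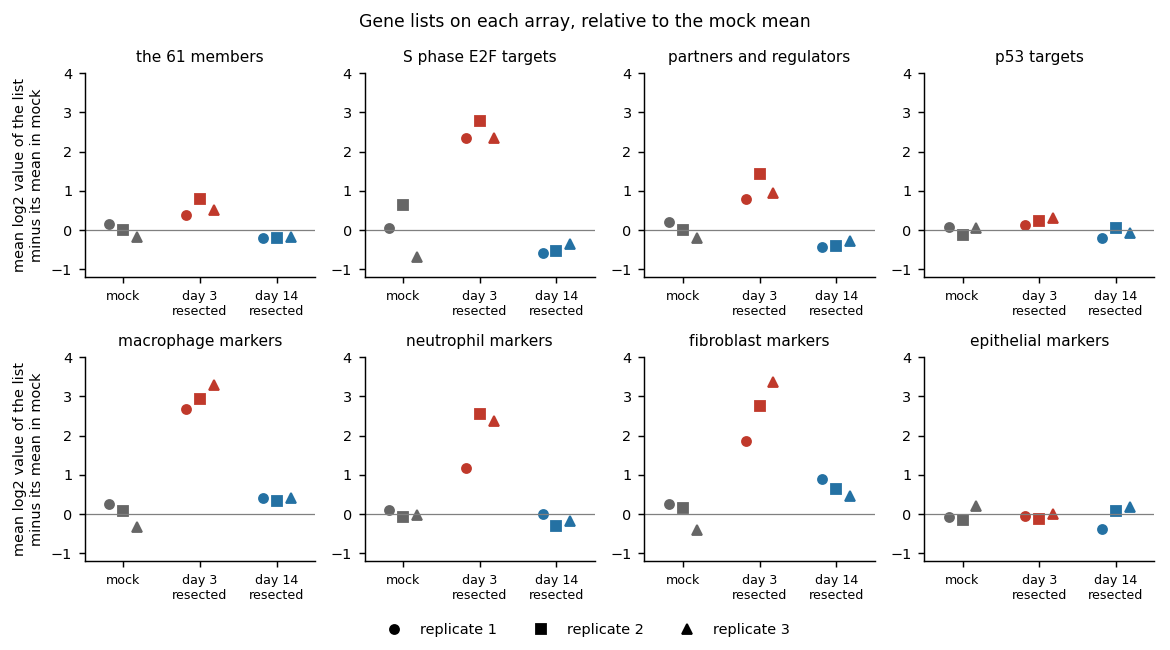
Mean log2 level of each gene list on each array minus its mean over the mock arrays (y axis), by group, with a symbol for each replicate. The members and their S phase targets are highest on the 3 day 3 resected arrays, as are macrophage, neutrophil and fibroblast markers, while epithelial markers stay within 11.95 to 12.53 before the mock mean is taken off.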

How the data were processed

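RNA of 9 glands was measured on Clariom S arrays. Per the series' design text and the submitters' processing notes, the authors made the deposited log2 values with Transcriptome Analysis Console 4.0 and RMA, a method that corrects background, normalizes between arrays and gives 1 value per transcript cluster. Genome build and annotation release: not given in the sources used here. The highest value is 19.93, above the range of a 16-bit scanner, so differences are on the deposited scale and are not calibrated folds. There are no detection calls and no filter on low values was used. The number of arrays limits the precision.

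Of 28846 rows, 6640 are controls. For the other 22206, limma 3.58.1 (R 4.3.3) was fitted to all 9 arrays, with a mean per group and moderated variances (6 residual and 6.63 prior degrees of freedom), two-sided, Benjamini-Hochberg adjusted within each comparison, threshold 0.05. The code was tested on simulated data. Gene names come from the platform's probe table and RefSeq: 19572 transcript clusters have a symbol and 2634 have none here. The members and lists were chosen with earlier results of these data known. Differences with an SE were given for the 8 largest rises and 4 largest falls past the threshold in each comparison and for a panel of core genes; the values of other members (such as Ccnd3, Ccne2, Cdc25b, Cdk14, Cdkn2d, E2f2, E2f3 and Rbl2) were chosen after they were seen. For each list outside the members, up to 4 of the largest differences past the threshold are named. Alternatives changed the scaling, a filter on the dimmest 30% of transcript clusters, the variance model, array weights, the arrays in the fit, a replicate block, the threshold (with at least 2-fold) and the transcript cluster used.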

Additional observations from a re-analysis of the deposited data

Results flagged for a closer look

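For 12 of the members whose differences were named by rule, the difference from mock on day 14 was not that of day 3, by a test of the difference between them. In this design that test is the comparison of the resected days, since the mock arrays cancel. The log2 difference from mock on day 14 minus that on day 3 was -5.52 for Cdk1, -4.97 for Ccna2 and -4.24 for Ccnb2, the partners of mitotic entry. It was -3.29 for Wee1 and -2.69 for Cdc25c, which act on Cdk1 from opposite sides. Genes of the entry to S phase followed, with -3.07 for E2f1, -2.60 for Ccne1 and -2.36 for Rbl1. The inhibitors had -2.69 (Cdkn1a) and -1.67 (Cdkn2c), and the smallest were -1.04 for Cdk6 and -0.95 for Rb1. Adjusted p from limma ran from 4.5e-06 (E2f1) to 0.0483 (Rb1). Because day 14 had no mock group of its own among the arrays analysed here, time since surgery and resection cannot be told apart in these values.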

How the results depend on the processing

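Of 816 values of single members under other settings (48 results), 765 kept their direction and their side of the threshold, 34 kept the direction but lost the call, 11 gained one and 6 changed sign. The number of members higher on day 3 than in mock (14) ran from 8 to 15 when 1 array was left out and from 11 to 17 under the other settings, and the number lower (0) from 0 to 1. The number lower on day 14 than on day 3 resected (16) ran from 10 to 17 and, under the other settings, from 14 to 19, and that lower on day 14 than in mock (0) from 0 to 2. An intensity trend gave 1 lower member on day 3 (Cdkn2a), quantile normalisation gave 1 member higher on day 14 than on day 3 (Rbl2), and an unadjusted p with at least 2-fold gave 2 members lower on day 14 than in mock. The cause of these shifts was not tested. Sign changes touched differences near 0. Cdkn1b on day 3 against mock was -0.062 under quantile normalisation and -0.058 under median centring, and -0.25 to 0.25 with 1 array left out. On day 14 against mock, with 1 array left out, Cdkn1a ran from -0.032 to 0.57 and Ccnd2 from -0.090 to 0.39.

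With replicate numbers as a block, 14 members were higher on day 3 than in mock, 15 were lower on day 14 than on day 3, and 0 differed on day 14 from mock. No pairing by number was seen: deviations of arrays with the same number correlated at -0.09 to 0.05, those with different numbers at -0.06 to 0.13. With 3 arrays in each group these values cannot exclude a factor shared by arrays of the same number. The filter on dim transcript clusters left out 9 members and kept 52. With no detection calls, a low level and no expression cannot be told apart for the 6 members under 4 on every array (Ccna1, Ccnb3, Ccno, Cdk15, Cdkn1c and Cdkn2a).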
